A study of Mus musculus with 12 samples.

Results

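Neurotrophin signalling genes were followed in striatal RNA of 12 mice, 3 in each of 4 groups. The set was chosen by gene symbol and holds 6 of the 55487 genes in the files: the ligands Bdnf and Ntf3, the Trk receptors Ntrk2 (TrkB) and Ntrk3 (TrkC), the p75 receptor Ngfr, and the sorting receptor Sort1 (sortilin). All 6 passed the filter on low counts and were tested. The double-mutant group, cGAS-KO;HD, carried the HD allele together with loss of cGAS. The HD group was heterozygous for the zQ175 neo-deleted knock-in, an allele of the mouse Htt gene with an expanded CAG repeat that models Huntington's disease in every cell that uses Htt. Mice of the cGAS-KO group had no cGAS, a sensor of cytosolic DNA that acts through STING, and the WT group were C57BL/6J mice. The question of the series is whether cGAS loss alters the disease of knock-in mice. The sources used here give no age, no sex and no account of which part of the cGAS gene was deleted.

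Neurotrophins are secreted growth factors that keep neurons alive and tune their synapses. They are made as proneurotrophins, and the mature forms bind Trk receptor tyrosine kinases, BDNF mainly TrkB and NT-3 mainly TrkC, while the uncleaved forms bind p75 together with sortilin. Striatal projection neurons make little BDNF themselves and receive most of it from cortical axons, which makes the supply and sensing of BDNF a long-standing topic in Huntington's disease.

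Bdnf has many alternative first exons, each with its own promoter, and CREB, a transcription factor driven by calcium and cAMP, is known to act on it. Of 32851 RefSeq promoter windows (GRCm38.p6, 250 bases before and 50 after a gene's start), 11 belonged to 4 of the 6 genes: 7 to Bdnf, 2 to Ntf3 and 1 each to Ntrk2 and Ngfr. The CREB-type motif TCACGTCA, searched on both strands, occurred in 1 of the 11, a Bdnf window, and in 0.441% of all windows. The palindromic CREB motif TGACGTCA occurred in 0 of the 11 and in 1.79% of all, and the EGR motif GCGTGGGCG in 0 of the 11 and in 0.612% of all. That Bdnf window was chosen because it holds the motif. Its 250 bases before the start are shown with the motif, at bases 213 to 220, in capitals (chr2:109692186-109692435, plus strand).
Bdnf promoter window: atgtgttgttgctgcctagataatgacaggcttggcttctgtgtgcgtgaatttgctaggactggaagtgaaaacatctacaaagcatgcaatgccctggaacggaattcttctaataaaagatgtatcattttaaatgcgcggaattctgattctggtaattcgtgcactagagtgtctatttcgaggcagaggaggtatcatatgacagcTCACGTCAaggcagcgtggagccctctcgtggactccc
A match of letters is a description of the window and no measurement of binding, and the counts per gene do not tell which Bdnf promoter was used.

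Libraries held 59195327 to 72765623 counts, and Xist was above 10 CPM (counts scaled by TMM to a common library size) in 2 of 3 libraries in the double mutants and in HD, against 1 of 3 in cGAS-KO and in WT. Striatal projection neuron markers were detected in every library, 15 of 15 genes. Htt averaged 135.3 ± 8.19 CPM in double mutants and 170.4 ± 13.2 CPM in cGAS-KO, and 139.4 ± 7.48 CPM in HD and 173.5 ± 5.27 CPM in WT (SD, n = 3 each). Cgas had 0.572 to 0.882 CPM in cGAS-KO and 1.32 to 1.56 CPM in WT, but 0.798 to 1.15 CPM in double mutants and 1.07 to 1.26 CPM in HD, which overlapped. Since the deleted exons are not given, whole-gene Cgas counts are no check of the cGAS labels. WT replicate 1 and cGAS-KO replicate 3 lay farthest from their groups, with chi-square distances per gene of 50.6 and 80.9 to the other WT libraries and of 157 and 195 to the other cGAS-KO libraries, against 9.26 between WT replicates 2 and 3 and 18.2 between cGAS-KO replicates 1 and 2. Calls and directions that change without both are given beside the values they touch or with the alternatives. WT replicate 1 and cGAS-KO replicate 3 were also the only libraries of their groups with Xist above 10 CPM. Fits without both therefore hold such libraries in the knock-in groups alone.

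The 6 genes covered a wide range of levels. Per kilobase of exon, WT striatum had 51.4 ± 6.82 CPM of Sort1 and 38.4 ± 0.998 CPM of Ntrk2, followed by 6.74 ± 0.506 of Ntrk3, 4.31 ± 1.22 of Ngfr, 1.63 ± 0.617 of Bdnf and 0.591 ± 0.102 of Ntf3 (SD, n = 3). The receptors and sortilin thus stood above both ligands. With the longest transcript in place of all exons as the length, Ntrk2 (84.6 ± 2.20 CPM per kilobase) came before Sort1 (56.9 ± 7.55), so the order of these 2 genes depends on the length used. On the first scale, the WT libraries of neighbours in this order did not overlap. Ntrk2 and Ntrk3 are annotated with 10 and 20 transcripts, which include full-length receptors and truncated forms without the kinase, and the counts per gene cannot separate them.

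**Figure D1:**
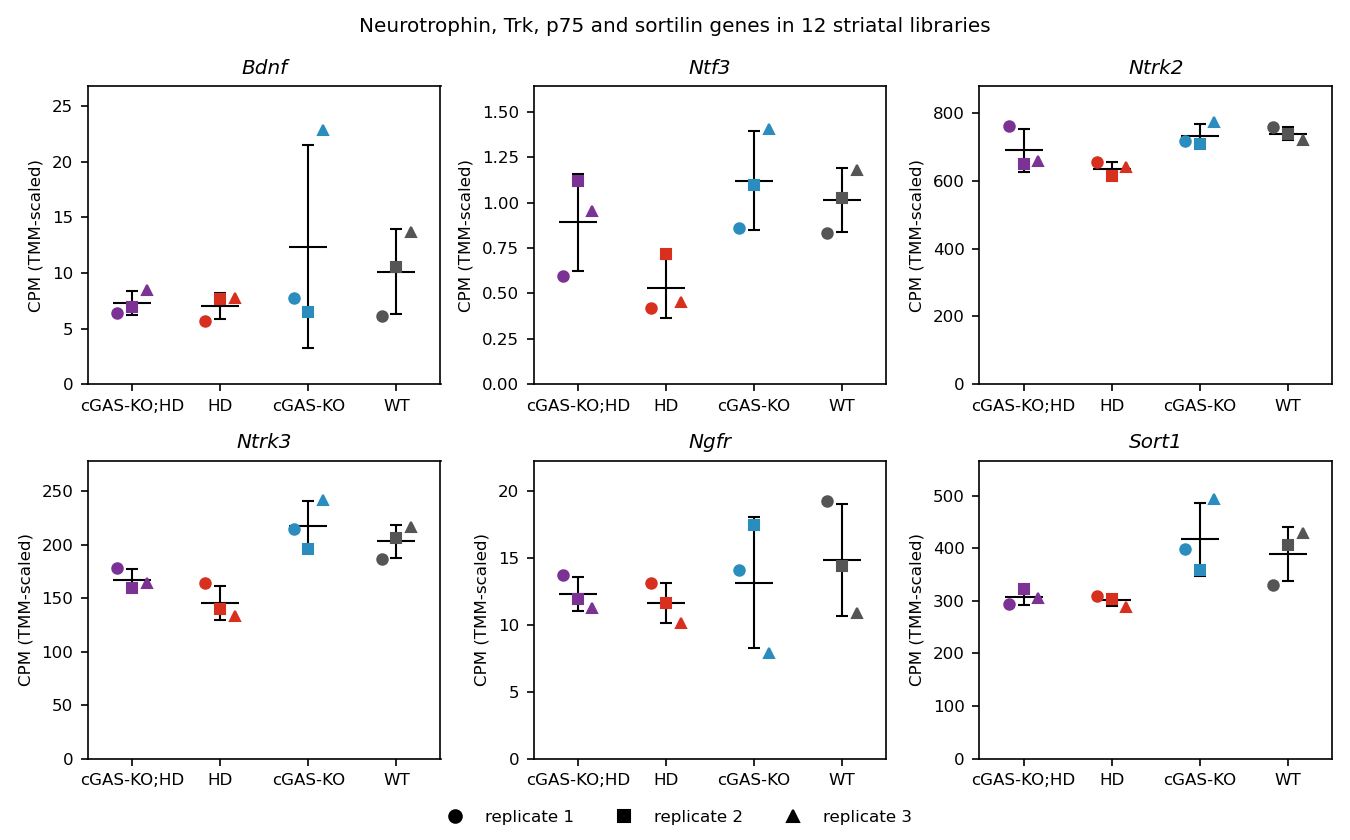
TMM-scaled CPM (vertical axis, from 0) of each gene in 12 libraries, by group from double mutant to WT, with the marker shape giving the replicate, a horizontal dash the group mean and bars the SD of 3 libraries. The HD values of Ntrk3, Ntrk2, Sort1 and Ntf3 lie below all WT values, and the single high Bdnf value is cGAS-KO replicate 3 at 22.9 CPM.

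The knock-in allele went with less Ntrk3 and less Sort1 RNA when averaged over both cGAS genotypes, and in each of them every knock-in library lay below every library without it for these 2 genes. In HD against WT, all 6 genes had log2 changes below 0, and Ntrk3 passed the test across all genes (edgeR's quasi-likelihood test, Benjamini-Hochberg adjusted p under 0.05): 1 of 6 was called, against 4.1% of the 21309 genes tested. Library values did not overlap, with HD lower, for 4 of 6 (Ntrk3, Ntrk2, Sort1 and Ntf3), against 13.1% of all genes. In double mutants against cGAS-KO, all 6 changes were again below 0, 0 of 6 were called by edgeR (3.96% of all genes were, and 2 of the 6 had an unadjusted p under 0.05), and 2 of 6, Ntrk3 and Sort1, did not overlap, with double mutants lower, against 10.7% of all genes. With the knock-in effect averaged over both cGAS genotypes, 2 of 6 fell, Ntrk3 and Sort1, against 13.2% of all genes called in either direction and 7.63% called lower. The median log2 change of the 6 was -0.42 in HD against WT, -0.35 in double mutants against cGAS-KO and -0.42 in the averaged effect, where the medians over all genes were 0.01, 0.00 and 0.01. In bulk tissue, fewer cells of a type and less RNA per cell cannot be told apart.

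**Figure D2:**
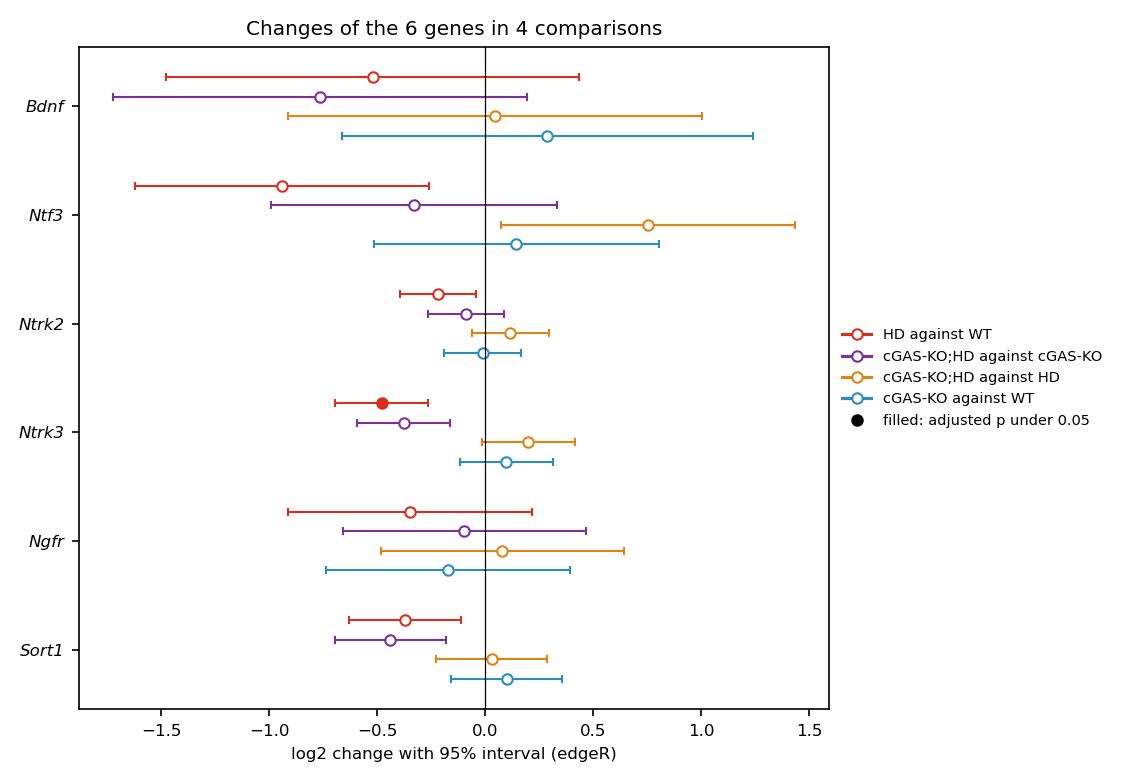
Log2 changes (horizontal axis) with 95% intervals from edgeR for the 6 genes in HD against WT, double mutants against cGAS-KO, double mutants against HD and cGAS-KO against WT, in that order from top to bottom within each gene; filled points have an adjusted p under 0.05. Ntrk3 in HD against WT, at -0.48, is the only filled point, and both knock-in comparisons lie left of 0 for every gene.

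Of the ligands, Bdnf, the neurotrophin of the corticostriatal pathway (chr2:109674700-109727007, plus strand, GRCm38), had 5.69, 7.67 and 7.78 CPM in HD against 6.09, 10.5 and 13.7 CPM in WT. It had 6.43, 6.90 and 8.49 CPM in double mutants against 7.76, 6.47 and 22.9 CPM in cGAS-KO. The groups overlapped in both comparisons, since WT replicate 1 sat within the HD range and cGAS-KO replicates 1 and 2 within the range of the double mutants. The log2 change of Bdnf was -0.52 ± 0.43 (standard error, adjusted p = 0.582) in HD against WT, with a 95% interval of -1.48 to 0.44, and -0.76 ± 0.44 (adjusted p = 0.409) in double mutants against cGAS-KO. With these 2 outlying libraries (WT replicate 1 and cGAS-KO replicate 3) left out, the change in HD against WT was -0.80 with an adjusted p of 0.00522, while that in double mutants against cGAS-KO was 0.02, so the call and the direction of Bdnf rest on those libraries. Averaged over cGAS genotypes the change was -0.64 ± 0.31 (adjusted p = 0.206), and with both left out -0.39 (adjusted p = 0.0352). An antisense gene, Gm45346, shares 896 exon bases with Bdnf and had 0 to 18 counts a library. The libraries were directional, but the sources used here do not give the strand setting of the counting.

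Ntf3, which encodes the TrkC ligand NT-3 (chr6:126101412-126166910, minus strand), was read 30 to 83 times a library. It had 0.420, 0.716 and 0.450 CPM in HD against 0.832, 1.03 and 1.18 CPM in WT, with no overlap. Double mutants had 0.598, 1.12 and 0.955 CPM against 0.860, 1.10 and 1.41 CPM in cGAS-KO, and these overlapped. Its log2 change of -0.94 ± 0.31 in HD against WT was the farthest below 0 of the 6 but was not called (adjusted p = 0.121), and that in double mutants against cGAS-KO was -0.33 ± 0.31 (adjusted p = 0.649). With both outlying libraries left out, Ntf3 was called in HD against WT (-1.08, adjusted p = 0.0397). Averaged over cGAS genotypes its change was -0.63 ± 0.22 (adjusted p = 0.0761), and DESeq2's Wald test called it (-0.64, adjusted p = 0.0365).

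Of the receptors, Ntrk3 (chr7:78175959-78738012, minus strand), the NT-3 receptor, had 164, 139.8 and 134 CPM in HD against 187, 207 and 217 CPM in WT. Double mutants had 179, 159.7 and 164 CPM against 215, 196 and 242 CPM in cGAS-KO. Every knock-in library lay below every library without the knock-in, in both cGAS backgrounds. In HD, Ntrk3 fell by 28.3% relative to WT (95% interval -38.2% to -16.7%, log2 change -0.48 ± 0.10, adjusted p = 0.0184). Leaving out WT replicate 2, WT replicate 3, HD replicate 2 or HD replicate 3 ended that call, with adjusted p of 0.0871, 0.102, 0.0804 and 0.0787 and log2 changes between -0.47 and -0.43. The change in double mutants against cGAS-KO was -0.38 ± 0.10 (adjusted p = 0.0548), short of the threshold, and with both outlying libraries left out it was -0.30 with an adjusted p of 0.0364. Averaged over cGAS genotypes, Ntrk3 fell by 25.7% (95% interval -33.1% to -17.4%, adjusted p = 0.00173).

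Ntrk2 (chr13:58806569-59133970, plus strand), the BDNF receptor, is made both by neurons and, mainly in its truncated form, by astrocytes. It had 656, 614 and 640.2 CPM in HD against 759.7, 739 and 721 CPM in WT, without overlap, and 763, 649.7 and 659 CPM in double mutants against 718, 709 and 775 CPM in cGAS-KO, with overlap through double-mutant replicate 1. The log2 changes were small and not called, -0.22 ± 0.08 (adjusted p = 0.168) in HD against WT, -0.09 ± 0.08 (adjusted p = 0.649) in double mutants against cGAS-KO and -0.15 ± 0.06 (adjusted p = 0.103) averaged. The interval for HD against WT runs from -23.9% to -2.74%. Over 13 astrocyte markers the summed level was 3956 to 4020 CPM in HD and 4722 to 5108 CPM in WT, without overlap. Within that list 1 of 13 genes fell in HD, the glutamate transporter Slc1a2 (log2 change -0.65 ± 0.12), and 1 rose, S100b, and the mean log2(CPM + 1) over the list overlapped, at 7.46 to 7.58 in HD and 7.42 to 7.74 in WT. The choice of Slc1a2 and S100b followed their values. The part of astrocyte RNA in the Ntrk2 values was not tested.

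Ngfr (chr11:95568818-95587735, minus strand) encodes p75, which in adult forebrain is known above all from cholinergic neurons. It had 13.2, 11.7 and 10.2 CPM in HD against 19.2, 14.4 and 10.9 CPM in WT, and 13.7, 12.0 and 11.3 CPM in double mutants against 14.1, 17.5 and 7.87 CPM in cGAS-KO. The groups overlapped in both comparisons. Its log2 change was -0.35 ± 0.26 (adjusted p = 0.525) in HD against WT and -0.10 ± 0.26 (adjusted p = 0.906) in double mutants against cGAS-KO, with 95% intervals that reach from -46.8% to 16.2% and from -36.7% to 38.2%.

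Sort1 (chr3:108284082-108361511, plus strand) encodes sortilin, which sorts proBDNF in the cell and pairs with p75 at the surface. It had 310.0, 304 and 289 CPM in HD against 331, 407 and 429 CPM in WT. Double mutants had 294, 323 and 305 CPM against 398, 359 and 493 CPM in cGAS-KO. As for Ntrk3, all 6 knock-in libraries lay below all 6 others. The log2 change was -0.37 ± 0.12 (adjusted p = 0.108) in HD against WT and -0.44 ± 0.12 (adjusted p = 0.06) in double mutants against cGAS-KO, neither called. Averaged over cGAS genotypes, Sort1 fell by 24.5% (95% interval -33.4% to -14.3%, log2 change -0.41 ± 0.08, adjusted p = 0.00724). With both outlying libraries left out, each comparison passed, with log2 changes of -0.49 (adjusted p = 0.000258) and -0.31 (adjusted p = 0.012). The antisense gene Gm12523 shares 338 exon bases with Sort1 and had 0 to 5 counts a library.

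Loss of cGAS changed none of the 6 genes past the threshold. In double mutants against HD all 6 log2 changes were above 0, 0 of 6 were called by edgeR, DESeq2's Wald test or limma-voom, and 1, Ntf3, had an unadjusted p under 0.05, beside 1 gene called of all 21309 (0.00469%). Ntf3 had 0.891 ± 0.267 CPM in double mutants and 0.529 ± 0.163 CPM in HD (SD, n = 3 each), a log2 change of 0.75 ± 0.31 with an interval of 0.07 to 1.44 (adjusted p = 0.757), and the groups overlapped. Ntrk3 had a log2 change of 0.20 ± 0.10 and Ntrk2 of 0.12 ± 0.08 (adjusted p = 0.757 for both), and those of Bdnf, Ngfr and Sort1 were 0.05, 0.08 and 0.03. This comparison shares the HD libraries with HD against WT, so a high or low HD value moves both. In cGAS-KO against WT, 0 of 6 were called by any of the 3 tools and 0 had an unadjusted p under 0.05, beside 0% of all genes called and 913 with an unadjusted p under 0.05. The log2 changes ran from -0.17 ± 0.26 for Ngfr to 0.29 ± 0.43 for Bdnf.

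The knock-in effect was not shown to differ with cGAS genotype for any of the 6. In the interaction test 0 of 6 were called by any of the 3 tools and 0 had an unadjusted p under 0.05, with 0.00469% of all genes called. For Ntrk3 the knock-in effects differed by 0.10 on the log2 scale (95% interval -0.20 to 0.41), for Sort1 by -0.07 (-0.43 to 0.29) and for Bdnf by -0.24 (-1.59 to 1.11). The intervals for Ntrk3 and Sort1 stay within a log2 step of 0.5, which is no smaller than the knock-in effects of these genes. They do not exclude a difference nearly as large as those effects, and the interval for Bdnf is wider still. In the cGAS effect averaged over knock-in genotypes, 0 of 6 were called by any of the 3 tools and 0 had an unadjusted p under 0.05, beside 0% of all genes, and the log2 changes ran from -0.05 for Ngfr to 0.45 ± 0.22 for Ntf3 (adjusted p = 0.564).

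Cell type markers differed between libraries in step with some of these genes. The 15 markers of striatal projection neurons summed to 1454 to 2628 CPM in HD and 4214 to 5931 CPM in WT, and to 2198 to 2297 CPM in double mutants and 5265 to 6398 CPM in cGAS-KO, and 12 of 15 fell in HD and 11 of 15 in double mutants. Ntrk3 and Sort1 both followed the same split. The 20 markers of cortical and other pallial glutamatergic neurons were all detected in every library and summed to 612.9, 666 and 679 CPM in HD and 613, 1429 and 1644 CPM in WT, and to 725, 896 and 755 CPM in double mutants and 988, 736 and 2421 CPM in cGAS-KO. The 3 libraries with the highest cortical sums, cGAS-KO replicate 3 and WT replicates 3 and 2, were also the 3 with the most Bdnf, in the same order. Within the groups without the knock-in, Sort1 and Ntrk3 ran in the order of the cortical sums too: Sort1 had 331, 407 and 429 CPM and Ntrk3 187, 207 and 217 CPM in WT replicates 1, 2 and 3. In cGAS-KO, replicates 2, 1 and 3, from the lowest cortical sum to the highest, had 359, 398 and 493 CPM of Sort1 and 196, 215 and 242 CPM of Ntrk3. In HD both genes ran against the cortical sums. HD replicates 1, 2 and 3 had 310.0, 304 and 289 CPM of Sort1 and 164, 139.8 and 134 CPM of Ntrk3. In double mutants Sort1 ran in the order of the cortical sums and Ntrk3 in the reverse order. The projection neuron sums ran in the same order as the cortical sums in WT. They did so in double mutants too, at 2198, 2297 and 2296 CPM in replicates 1, 2 and 3. In HD replicates 1, 2 and 3 they were 2628, 2058 and 1454 CPM, the order of Sort1 and Ntrk3 there. In cGAS-KO replicates 1, 2 and 3 they were 6398, 5265 and 5598 CPM, the order of neither the cortical sums nor these genes. WT replicate 1, at a cortical sum of 613 CPM and a Bdnf level of 6.09 CPM, lay within or next to the HD values of both, and its Ntrk3 and Sort1 levels were above those of the HD libraries. The cortical sum of cGAS-KO replicate 2 lay inside the double-mutant range, and its Ntrk3 and Sort1 levels were above those of the double mutants. The 10 markers of cholinergic interneurons were detected in every library. They summed to their highest in WT replicate 1 (346 CPM) and lowest in cGAS-KO replicate 3 (203 CPM), the libraries with the most and the least Ngfr. Ache and Ecel1, the largest in the list, and Slc18a3 had both extremes in these libraries, and the other markers did not. Chat was highest in cGAS-KO replicate 2 (22.15 CPM) and Slc5a7 in cGAS-KO replicate 1 (46.95 CPM). Both were lowest in HD replicate 3 (12.21 and 28.3 CPM). Isl1 is also a projection neuron marker here and Gbx2 a thalamic marker. The part of these cell types in the values of the 6 genes was not tested.

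**Figure D3:**
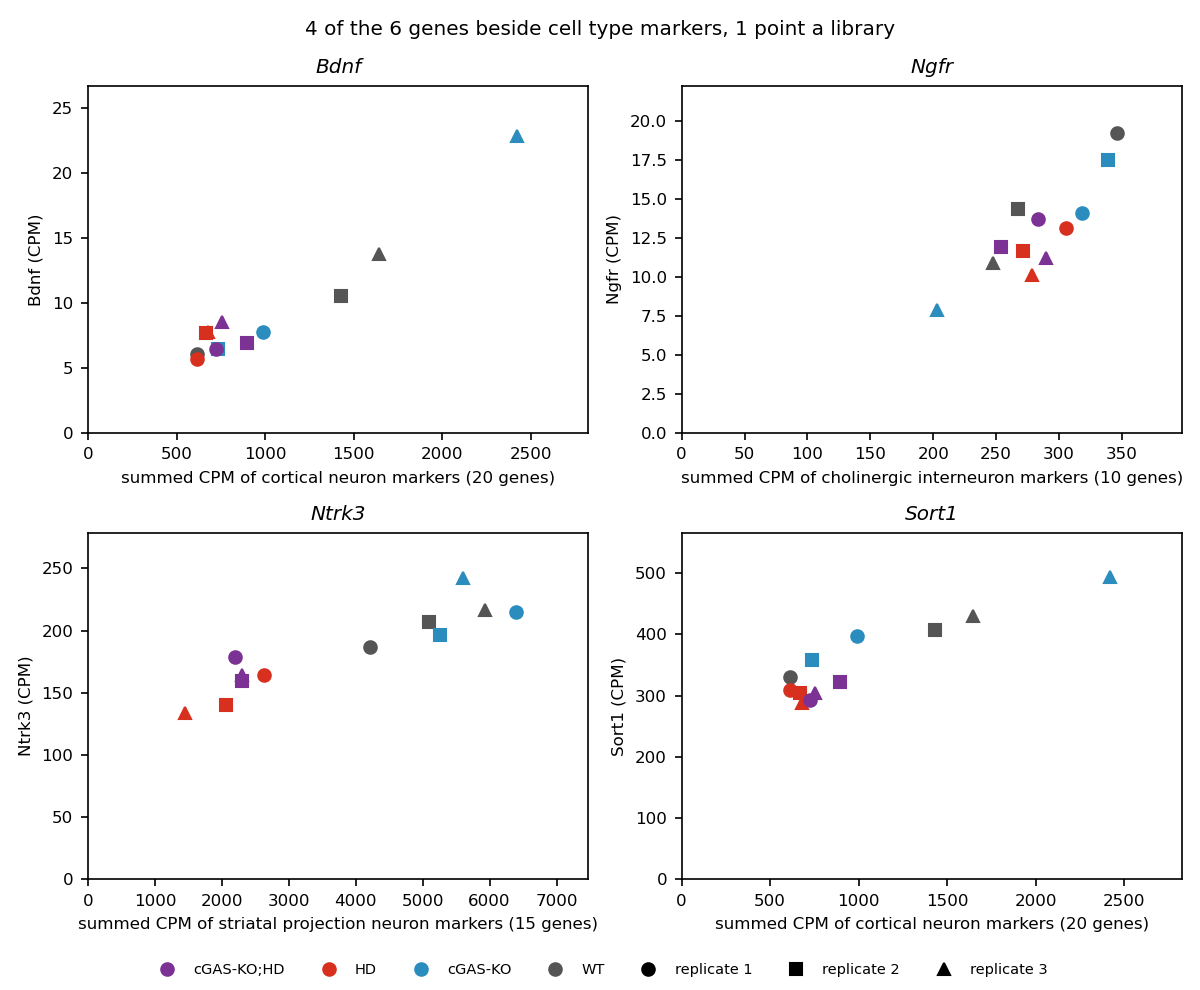
Each point is a library, with the CPM of a gene on the vertical axis and the summed CPM of a marker list on the horizontal axis, both from 0: Bdnf and Sort1 against 20 cortical neuron markers, Ngfr against 10 cholinergic markers and Ntrk3 against 15 projection neuron markers. Colour gives the group and shape the replicate; Bdnf climbs with the cortical sum up to 22.9 CPM in cGAS-KO replicate 3, while the Ntrk3 points form a knock-in cloud and a higher cloud without the knock-in.

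Across the 12 libraries, the genes whose log2 CPM ran most like each of the 6, among 12083 genes with a mean of at least 5 CPM, give a description of these patterns. All values come from the same 12 libraries and share their depth and makeup. Ntrk3 was most like Fam171a1 (Pearson r = 0.98), Drd2, the dopamine receptor of indirect-pathway projection neurons (r = 0.98), and Wipf3 (r = 0.98). Drd2 had 71.8, 50.2 and 31.2 CPM in HD against 112, 136 and 149 CPM in WT, with a log2 change of -1.37 ± 0.28 where that of Ntrk3 was -0.48 ± 0.10. Sort1 was most like Prkcz, an atypical protein kinase C (r = 0.99), Kalrn, a protein of dendritic spines (r = 0.99), and Ttl, tubulin tyrosine ligase (r = 0.99). Bdnf was most like Nuak1 (r = 0.97), the potassium channel gene Kcnj6 (r = 0.97) and Fam19a1 (r = 0.96). The likeness was lower for Ntrk2 (Zfp532, r = 0.93, Ovca2 and Arhgdib, both r = 0.91), Ntf3 (Samd1, r = 0.89, Ighm, r = 0.87, and Fbxo46, r = 0.86) and Ngfr (Nwd1, r = 0.89, and Ptch1 and Ecel1, both r = 0.88). Ecel1 is also among the 10 cholinergic markers.

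Among 8 further genes of the family, 7 were tested and Sorcs2, a sortilin relative that binds proneurotrophins together with p75, fell in both knock-in comparisons. It had 55.7, 56.3 and 62.4 CPM in HD against 78.6, 73.1 and 76.6 CPM in WT. In double mutants it had 46.1, 48.1 and 57.7 CPM against 84.5, 78.0 and 67.7 CPM in cGAS-KO. No library values overlapped in either comparison, and the log2 changes were -0.39 ± 0.10 (adjusted p = 0.0465) and -0.60 ± 0.10 (adjusted p = 0.00493). Sorcs2 (chr5:36017180-36398139, minus strand) lies on the same chromosome as Htt (chr5:34761740-34912534, plus strand), the gene that carries the knock-in. Whether this position bears on the Sorcs2 values was not tested. Sorcs3, another sortilin relative, fell in the averaged effect (log2 change -0.29 ± 0.06, adjusted p = 0.0104), with 37.4 ± 2.17 CPM in HD and 44.2 ± 3.79 CPM in WT, and 36.8 ± 1.62 CPM in double mutants and 46.5 ± 4.74 CPM in cGAS-KO (SD, n = 3 each). The remaining 5 were not called in any comparison, and in HD against WT the log2 changes were -0.16 ± 0.12 for Sorl1 and 0.06 ± 0.08 for Sorcs1, both sortilin relatives, and 0.26 ± 0.21 for Nradd, a p75 relative. Ntf5, which encodes the TrkB ligand NT-4, was read 1 to 17 times a library and did not pass the filter.

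Genes that make, carry and answer neurotrophins were read from lists, with the averaged knock-in effect (13.2% of all genes called) as the common yardstick. Of 14 tested genes for cleavage and release of proneurotrophins, 1 rose, the granule protein Scg2 (log2 change 0.24 ± 0.07), and 1 fell, the prohormone convertase Pcsk2 (-0.43 ± 0.09), and the median was 0.07. Both were named after their values were seen. Of 18 genes for axonal transport of BDNF and TrkB vesicles, 0 rose and 2 fell, Htt itself (-0.32 ± 0.05) and the kinesin heavy chain Kif5c, which had 699 ± 35.3 CPM in double mutants and 917 ± 40.0 CPM in cGAS-KO (SD, n = 3 each, log2 change -0.39 ± 0.09, adjusted p = 0.0371). Kif5c was not called in HD against WT (-0.30 ± 0.09, adjusted p = 0.097). The median of this list was 0.04, and its other 16 genes were not called.

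Trk adaptors and downstream enzymes moved in both directions. Of 44 tested, 3 rose and 9 fell in the averaged effect, with a median of -0.02. The small GTPase Hras fell in HD (log2 change -0.35 ± 0.08, adjusted p = 0.0328) and in double mutants (-0.38 ± 0.08, adjusted p = 0.0197). The kinase gene Rps6ka2 passed in HD (-0.35 ± 0.08, adjusted p = 0.0343, with -0.16 ± 0.08, adjusted p = 0.365, in double mutants), and Pdpk1, which encodes the kinase PDK1 that activates Akt, in double mutants (-0.33 ± 0.09, adjusted p = 0.0464, with -0.18 ± 0.08, adjusted p = 0.28, in HD). Neither gene was called in the interaction test of that difference. In the averaged effect the kinase gene Akt2 fell by 0.42 on the log2 scale, and the adaptors Shc1 and Gab2 rose by 0.28 each; these 3 were named after their values were seen. Of 23 p75 partners, 2 rose, the zinc finger gene Zfp110 (0.33 ± 0.06) and Traf6 (0.27 ± 0.07), and 1 fell, Ndnf (-0.80 ± 0.22), which encodes a secreted neurotrophic factor and no p75 partner, with a list median of 0.03. Traf6 and Ndnf were named after their values were seen.

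By its median, the lowest of the pathway lists holds 24 genes that BDNF or activity induces, with 0 higher and 9 lower in the averaged effect and a median log2 change of -0.82, beside 0.01 over all genes. Penk, the enkephalin precursor, had 202 ± 74.0 CPM in HD and 591 ± 75.9 CPM in WT, and 254 ± 18.8 CPM in double mutants and 717 ± 129.7 CPM in cGAS-KO (SD, n = 3 each), log2 changes of -1.55 ± 0.23 and -1.50 ± 0.23 (adjusted p = 0.00361 and 0.00349). Ppp1r1b, which encodes DARPP-32, changed by -1.29 ± 0.23 and -1.22 ± 0.23 (adjusted p = 0.00927 and 0.0119). Penk and Ppp1r1b are also among the 15 markers of projection neurons, and Nptx1 is also among the cortical markers. Of genes outside those marker lists, the signalling inhibitor Spry2 fell in double mutants (-0.64 ± 0.16, adjusted p = 0.0427) but was not called in HD against WT (-0.44 ± 0.16, adjusted p = 0.154). In the averaged effect Egr2 (-2.02 ± 0.44), Homer1 (-0.96 ± 0.19), Egr3 (-0.94 ± 0.24) and Dusp6 (-0.55 ± 0.16) fell, these 4 named after their values were seen. Of 25 known regulators of Bdnf, 0 rose and 1 fell, the CREB coactivator Crtc1, which had 141 ± 16.0 CPM in HD and 199 ± 23.7 CPM in WT (SD, n = 3 each, log2 change -0.49 ± 0.10, adjusted p = 0.014), and the median was -0.05. Crtc1 was not called in double mutants against cGAS-KO (-0.25 ± 0.10, adjusted p = 0.204).

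**Figure D4:**
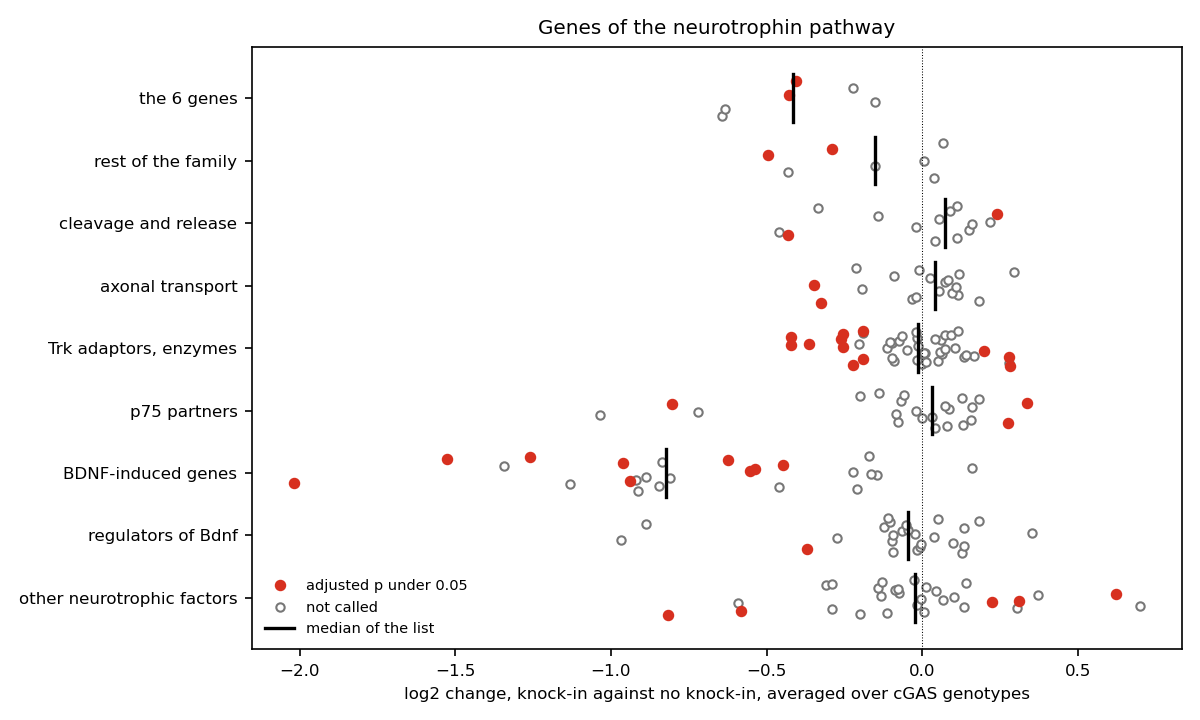
Log2 changes of the knock-in effect averaged over cGAS genotypes (horizontal axis) for every tested gene of 9 lists, 1 point a gene, filled red where the adjusted p is under 0.05, with a bar at the list median; the dotted line marks 0. The 24 genes that BDNF or activity induces (labelled BDNF-induced genes) have a median of -0.82. The 6 neurotrophin, Trk, p75 and sortilin genes have a median of -0.42 and the rest of the family of -0.15. The medians of the transport, adaptor, p75 partner, regulator, release and other neurotrophic factor lists lie between -0.05 and 0.07.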

How the data were processed

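Poly(A) RNA of striatal tissue from 12 mice was sequenced as directional libraries, per the labels' protocols. The authors deposited raw counts, whole numbers by Ensembl gene ID, 1 table a library. The sources used here do not give the aligner, annotation, build or counting rule. Of 55487 gene IDs, 55141 (99.4%) took a symbol from GENCODE M21 (GRCm38), which also gave positions and exon lengths. Groups and replicate numbers came from the sample titles.

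Genes were kept by filterByExpr (minimum count 10, minimum total 15), which left 21309. edgeR 4.0.16 (R 4.3.3) fitted 1 mean a group over all 12 libraries with TMM scaling and the robust quasi-likelihood model (8 residual degrees of freedom, common dispersion 0.0326), and a gene was called when its p, adjusted by Benjamini-Hochberg over all 21309, was under 0.05. There were 7 comparisons. Errors of log2 changes are standard errors, and intervals are 95%. Levels are TMM-scaled CPM computed here. P-values set a difference against the spread between mice within groups, which was estimated over all groups together and shared in part across genes.

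The 6 genes and the lists were chosen with earlier results of these data known. The rule for named genes took the 6, Htt, Cgas, the rest of the family, up to 5 called genes of each list in the 2 knock-in comparisons by smallest averaged p, and the 3 genes most alike in log2 CPM (prior count 2). Exceptions are marked, and some genes of these lists are not reported here.

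In a test on simulated counts for HD against WT (20918 genes, 50 changed per fold size), 0 genes with a 1.25-fold change were recovered, 22 with 1.5-fold, 37 with 2-fold and 47 with 4-fold, and 7 of 113 calls were false. Alternatives were DESeq2 1.42.0 size factors, DESeq2's Wald test, limma-voom (limma 3.58.1), no filter, a filter of 1 CPM in 3 libraries, only the groups compared, a block for the replicate number, each library left out, both WT replicate 1 and cGAS-KO replicate 3 left out, and Xist above 10 CPM as a covariate, the last chosen after seeing the data.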

Additional observations from a re-analysis of the deposited data

How the results depend on the processing

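Ntrk3 and Sort1 were called lower in the averaged knock-in effect under every alternative run. The number of the 6 genes called there was 2, against 4 with DESeq2's Wald test, where Ntf3 (-0.64, adjusted p = 0.0365) and Ntrk2 (-0.16, adjusted p = 0.0231) were added, 3 without both WT replicate 1 and cGAS-KO replicate 3, where Bdnf was added, and 2 with any library left out. In HD against WT it was 1, against 3 with DESeq2's Wald test, 4 without both libraries, and 0 to 2 with 1 library left out. In double mutants against cGAS-KO it was 0, against 1 with DESeq2 size factors, 2 with no filter, with the filter of 1 CPM, with DESeq2's Wald test and without both libraries, and 0 to 2 with 1 left out. It was 0 throughout for the other comparisons. Without both libraries, signs turned for double mutants against cGAS-KO in Bdnf (0.025), for cGAS-KO against WT in Bdnf (-0.77), Ntf3 (-0.18), Ntrk3 (-0.0459), Ngfr (0.32) and Sort1 (-0.15), for the interaction in Bdnf (0.82), Ngfr (-0.24) and Sort1 (0.18), and for the averaged cGAS effect in Bdnf (-0.36), Ngfr (0.20) and Sort1 (-0.0576). With 1 library left out, log2 changes that turned sign ranged as follows. In double mutants against cGAS-KO, Bdnf ran from -1.07 to 0.0239 and Ngfr from -0.37 to 0.16. In double mutants against HD, Bdnf ran from -0.0847 to 0.13, Ngfr from -0.0069 to 0.18 and Sort1 from -0.0072 to 0.0624. In cGAS-KO against WT, Bdnf ran from -0.50 to 0.60, Ngfr from -0.43 to 0.10, Ntf3 from -0.0444 to 0.30, Ntrk2 from -0.0463 to 0.0141 and Sort1 from -0.0343 to 0.20. In the interaction, Bdnf ran from -0.55 to 0.54, Ngfr from -0.0252 to 0.51 and Sort1 from -0.17 to 0.0593, and in the averaged cGAS effect Bdnf from -0.23 to 0.32, Ngfr from -0.17 to 0.0875 and Sort1 from -0.0047 to 0.11. None of these values was called in the fit over all libraries. The cause was not tested. Over all genes, calls ran from 247 to 3589 in HD against WT (873 reported), 321 to 1805 in double mutants against cGAS-KO (843), 1784 to 4595 in the averaged knock-in effect (2816), 1 to 7 in double mutants against HD (1), 0 to 38 in cGAS-KO against WT (0), 0 to 105 in the interaction (1) and 0 to 10 in the averaged cGAS effect (0). Same-numbered libraries correlated at -0.23 to 0.20 in their deviations from group means, with 2 of 18 pairs over 0.1 and 2 of 12 libraries closest to their own number. These values gave no sign that the numbers pair the mice, though low correlations cannot exclude a pairing. With the replicate block, 1, 0 and 3 of the 6 were called in HD against WT, in double mutants against cGAS-KO and in the averaged knock-in effect. Ntf3 was the one added in the last (-0.65, adjusted p = 0.0457). With the Xist covariate, 1, 0 and 2 were called. At 30 to 83 counts, Ntf3 is the gene that depth limits most.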

Other observations

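Of 30 tested neurotrophic factors and receptors outside the neurotrophin family, 3 rose and 2 fell in the averaged knock-in effect (13.2% of all genes called in either direction), with a median log2 change of -0.02. Fgf1, a fibroblast growth factor, had 160 ± 6.58 CPM in HD and 105 ± 18.7 CPM in WT, and 157 ± 12.6 CPM in double mutants and 101 ± 9.01 CPM in cGAS-KO (SD, n = 3 each), log2 changes of 0.61 ± 0.11 (adjusted p = 0.0106) and 0.63 ± 0.11 (adjusted p = 0.00857). Il6st, which encodes gp130, the signalling receptor shared by CNTF and related cytokines, rose by 0.30 ± 0.07 in HD (adjusted p = 0.0434) and by 0.32 ± 0.08 in double mutants (adjusted p = 0.0324). In the averaged effect Lifr, which partners gp130, rose by 0.22 ± 0.06, while Gdnf and Gfra2, a ligand and a receptor of the GDNF family, had log2 changes of -0.82 ± 0.24 and -0.58 ± 0.15 and fell. The choice of these 3 followed their values.

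The 9 markers of thalamic neurons summed to 763 to 1419 CPM in HD and 393 to 982 CPM in WT, and to 550 to 805 CPM in double mutants and 328 to 984 CPM in cGAS-KO. All 9 had log2 changes above 0 in HD against WT, and edgeR called 0 of 9. The highest sum without the knock-in was 984 CPM in cGAS-KO replicate 2, next to 982 CPM in WT replicate 1, and the lowest of the 12 was 328 CPM in cGAS-KO replicate 3.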
